A study of Mus musculus with 24 samples.

Results

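The genes described here are 10 regulators and effectors of the epithelial state: the splicing factors Esrp1 and Esrp2, the transcription factors Grhl1, Grhl2, Ovol1, Elf3 and Ehf, and the membrane and trafficking proteins Rab25, Prom2 and St14. They were taken by symbol from a table of 23478 genes, and each symbol matched 1 gene. The cells were 4T1-T, a mouse mammary carcinoma line. RNA was counted in 24 libraries that fall into 6 groups of 4 by site and hairpin: tumor shRenilla, tumor shAsns-1, tumor shAsns-2, lung shRenilla, lung shAsns-1 and lung shAsns-2. All 24 libraries, the shRenilla controls included, came from cells infected with an shRNA, recovered from a primary tumor or from lung metastases, selected in 6TG (6-thioguanine, a drug used to recover resistant tumor cells from host tissue) and kept in DMEM medium supplemented with non-essential amino acids. The RNA therefore describes cells after selection and culture, not tissue. The hairpin shRenilla targets a luciferase that mouse cells lack and is the control, and shAsns-1 and shAsns-2 were designed against asparagine synthetase. The labels give no mouse, age or sex, and whether libraries A to D of a group come from separate animals or cultures is not said. P-values therefore reflect only how far these libraries differ, and part of that may be technical.

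ESRP1 and ESRP2 are RNA-binding proteins that keep exon choice in the epithelial pattern in genes such as Fgfr2, Cd44, Ctnnd1 and Enah. Grainyhead-like factors (GRHL1, GRHL2), OVOL1 and the ETS factors ELF3 and EHF bind DNA and maintain junction and polarity genes, and GRHL2 and the OVOL factors are known to oppose ZEB1, which in turn represses many epithelial genes. RAB25 is a RAB11-family GTPase of recycling endosomes, PROM2 (prominin-2) is a pentaspan protein of membrane protrusions, and ST14 encodes matriptase, a transmembrane serine protease of epithelial cells.

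Total counts per library, in M, lay between 8.48 and 38.05 (median 28.7, lowest in tumor shAsns-2 A). Levels are given in CPM, counts relative to the library total after TMM scaling. Asns itself was measured at 82.8 ± 15.9 CPM (SD, n = 4) in tumor shRenilla, 36.8 ± 10.3 in tumor shAsns-2 and 170 ± 17.1 in tumor shAsns-1, and at 63.6 ± 7.89, 44.6 ± 6.51 and 194 ± 18.2 in lung shRenilla, shAsns-2 and shAsns-1. The libraries labelled shAsns-1 thus held more Asns RNA than the control libraries (log2 fold change 1.04 ± 0.16, adjusted p = 1.47e-05 in tumor, and 1.61 ± 0.16, adjusted p = 2.62e-06 in lung), against what the label names. Every direction given below for shAsns-1 is that of the libraries so labelled.

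The members other than Ehf showed 1 pattern across the groups. In cells from tumors, the shRenilla and shAsns-2 libraries held the higher levels and the libraries labelled shAsns-1 the lower ones, and all 3 lung groups lay near the lower level. Of the 9 members that could be tested, 9 fell in the libraries labelled shAsns-1 against tumor shRenilla, by edgeR's quasi-likelihood test over 12625 genes at a Benjamini-Hochberg adjusted p under 0.05. Of all genes tested, 17.7% were called lower in that comparison. Rab25 and Prom2 passed the filter on low counts (0.348 CPM) almost only through the 8 tumor shRenilla and shAsns-2 libraries, with 0 and 1 of the other 16 libraries above it, so their fall was built into their being tested. The 7 members that passed it in at least 14 of the other 16 libraries had a median log2 fold change of -1.75 (from -3.58 to -1.24), beside -0.015 over all genes tested. In bulk RNA, fewer cells that express a gene and less RNA per cell cannot be told apart.

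**Figure D1:**
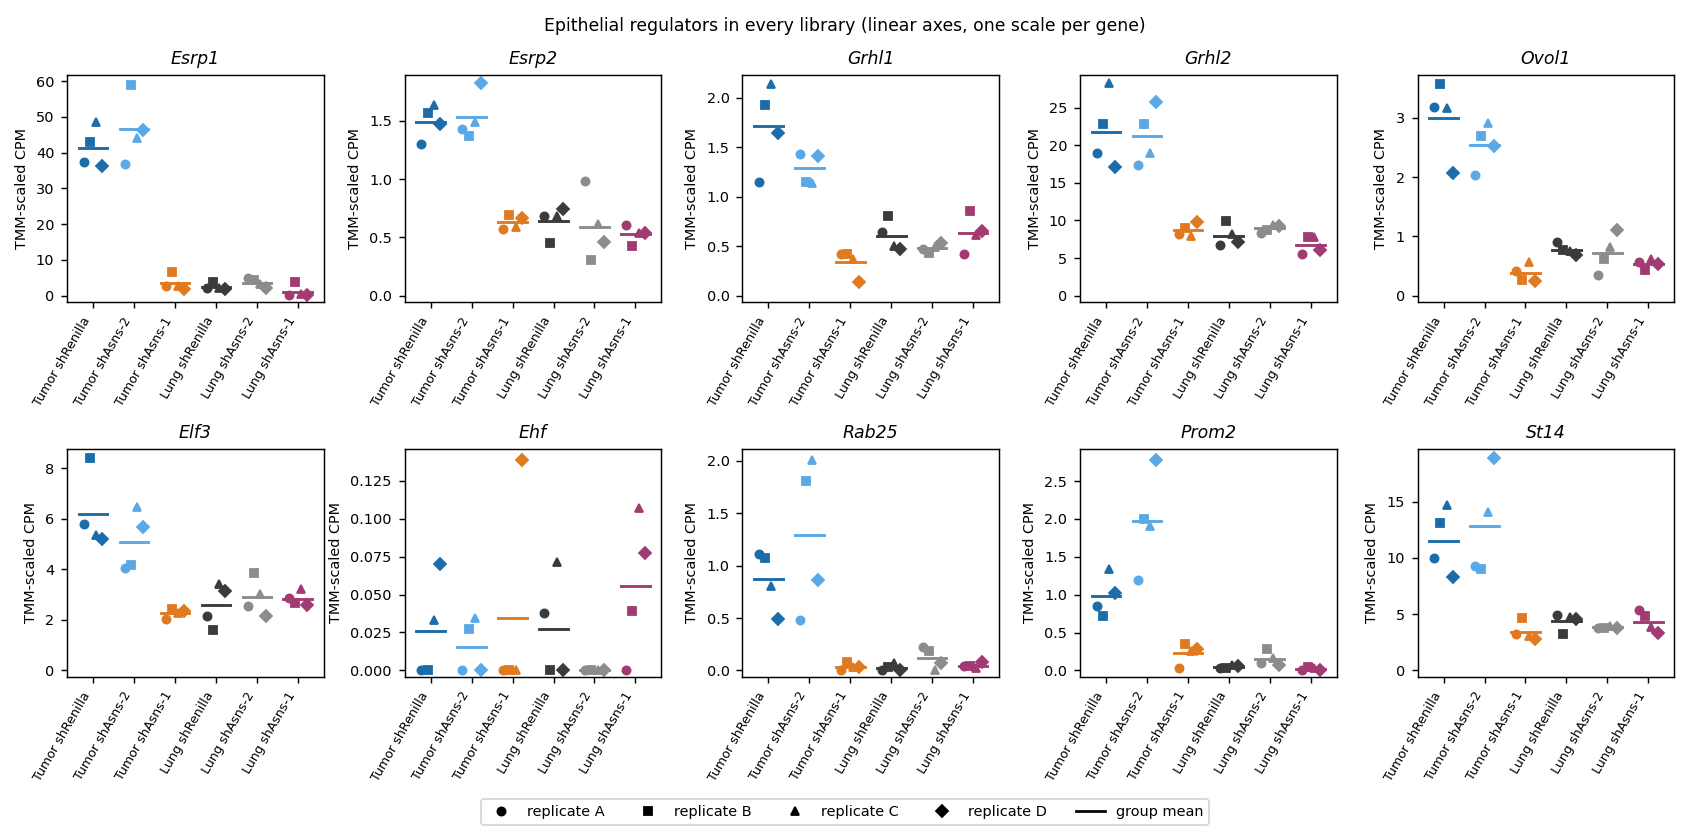
Level of each of the 10 members in every library, in TMM-scaled CPM on linear axes with 1 scale per gene. Each point is a library, with its shape giving the replicate letter, and the lines are the means of the 4 libraries. The 8 tumor shRenilla and shAsns-2 libraries stand above the other 16 for each of the 9 tested members, and Ehf stays under 0.14 CPM everywhere. For Rab25 and Prom2 this was built into their being tested. The share of all genes with this split was not counted. Of all genes tested, 18.6% lay wholly lower in the tumor libraries labelled shAsns-1 than in tumor shRenilla.

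Esrp1 (ENSMUSG00000040728, chromosome 4, 11331933 to 11386783, minus strand, GRCm38) was the most abundant member in tumor shRenilla per kilobase of exon. Its levels there were 37.5, 43.0, 48.5 and 36.3 CPM in libraries A to D. In tumor shAsns-2 they were 36.9, 58.9, 44.1 and 46.3 CPM, and in the tumor libraries labelled shAsns-1 they were 2.78, 6.74, 2.71 and 1.78 CPM. No shAsns-1 library came near a library of the other tumor groups, and their mean was 8.48% of the tumor shRenilla mean (log2 fold change -3.58 ± 0.47, adjusted p = 2.05e-06). Lung shRenilla held 2.20, 3.88, 2.04 and 2.00 CPM, which is within the range of the tumor libraries labelled shAsns-1. Against tumor shRenilla, the lung shRenilla level was lower by -4.02 ± 0.49 on the log2 scale (adjusted p = 7.05e-07).

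The lung libraries labelled shAsns-1 disagreed among themselves about Esrp1. They held 0.228, 3.85, 0.401 and 0.0772 CPM, from 6, 99, 15 and 2 counts, so that the highest was 49.9 times the lowest. In no other group did the Esrp1 libraries differ by more than 3.80 times. With all 4 libraries, lung shAsns-1 against lung shRenilla gave -1.21 ± 0.57 (adjusted p = 0.368), and without lung shAsns-1 B it gave -3.30 (adjusted p = 0.00252). Of other epithelial genes, that library held 184 CPM of Krt8, 239 of Krt18, 24.5 of Cdh1 and 11.5 of Epcam, beside 157 to 184, 199 to 235, 18.6 to 19.2 and 8.27 to 12.9 in the other 3. Cdh1 was thus highest there too, by a far smaller margin than Esrp1. Some markers of other cell types ranked these libraries the opposite way. In A to D, Col3a1, a fibroblast collagen gene, stood at 1.599, 0.311, 0.669 and 8.53 CPM, and the myeloid lysozyme gene Lyz2 at 4.11, 1.36, 2.595 and 7.84 CPM. The sum of 8 leukocyte markers was 6.55, 3.74, 5.00 and 10.4 CPM, lowest in library B and highest in D. That of 9 fibroblast markers was 35.5, 34.3, 34.6 and 70.0 CPM, where A, B and C were close and only D stood apart. Other marker sums did not follow that order. The 6 endothelial markers summed to 0.685, 0.701, 1.12 and 1.20 CPM, and 10 lung epithelium markers to 39.5, 37.6, 31.5 and 40.8 CPM. Nearly all of the lung epithelium sum was Lamp3 (31.4 to 40.5 CPM in this group), a gene as high in tumor groups. The other 9 summed to 0.0778 to 0.232 CPM. Much of the fibroblast sum was likewise Pdgfra (28.4 to 41.2 CPM). The part of these cell types in the Esrp1 levels was not tested. Lung shAsns-2, with 4.97, 4.40, 3.16 and 2.13 CPM, overlapped lung shRenilla. Library B held the highest Esrp1 level in 4 of the 6 groups.

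Esrp2 (ENSMUSG00000084128, chromosome 8, 106130319 to 106136974, minus strand) is the paralogue of Esrp1 with an overlapping set of target exons. It was scarcer, at 1.30, 1.57, 1.64 and 1.47 CPM in tumor shRenilla and 0.572, 0.694, 0.592 and 0.666 CPM in the tumor libraries labelled shAsns-1. The groups did not overlap, and the fall was -1.24 ± 0.24 (adjusted p = 3.00e-04). Lung shRenilla held 0.682, 0.449, 0.681 and 0.745 CPM, a difference of -1.22 ± 0.24 from tumor shRenilla (adjusted p = 5.45e-04). Esrp2 and the longer gene Nfatc3 on the opposite strand share exonic bases, as does 1810019D21Rik, and the sources used here do not give the strand setting of the counting. Nfatc3 stood at 117 to 182 CPM over all 24 libraries and was called in no comparison, so the Esrp2 values are uncertain to the extent that reads from that overlap were shared.

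Both ESRP genes fell, and the estimated fall was larger for Esrp1. Per kilobase of exon, the ratio of Esrp1 to Esrp2 was 19.9, 18.9, 20.4 and 17.0 in tumor shRenilla. It was 3.35, 6.69, 3.15 and 1.84 for shAsns-1 in tumor and 2.22, 5.95, 2.07 and 1.84 in lung shRenilla. Both low groups lay wholly below tumor shRenilla (exact permutation p = 0.0286 for each, two-sided, the smallest that 4 against 4 allows, and 0.0571 adjusted over 6 such tests, which were added after the data were seen). In lung shAsns-1 the ratio was 0.258, 6.20, 0.516 and 0.0983, so Esrp2 was the higher of the pair in 3 libraries and Esrp1 in library B.

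Levels per kilobase also show how the order of the members shifted. In tumor shRenilla the mean levels, in CPM per kilobase, were 6.55 for Esrp1, 2.79 for Elf3, 2.53 for Grhl2, 1.51 for St14, 0.859 for Ovol1, 0.519 for Rab25, 0.344 for Esrp2, 0.309 for Grhl1 and 0.189 for Prom2. Elf3 and Grhl2 were closer to each other than their SDs (0.680 and 0.570), and Esrp2 and Grhl1 lay about 1 SD of Esrp2 apart (SDs 0.0337 and 0.0770). In lung shRenilla Elf3 led at 1.16, followed by Grhl2 at 0.928, St14 at 0.571 and Esrp1 at 0.401. Rab25 and Prom2 were last there, at 0.0155 and 0.00970 CPM per kilobase.

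**Figure D2:**
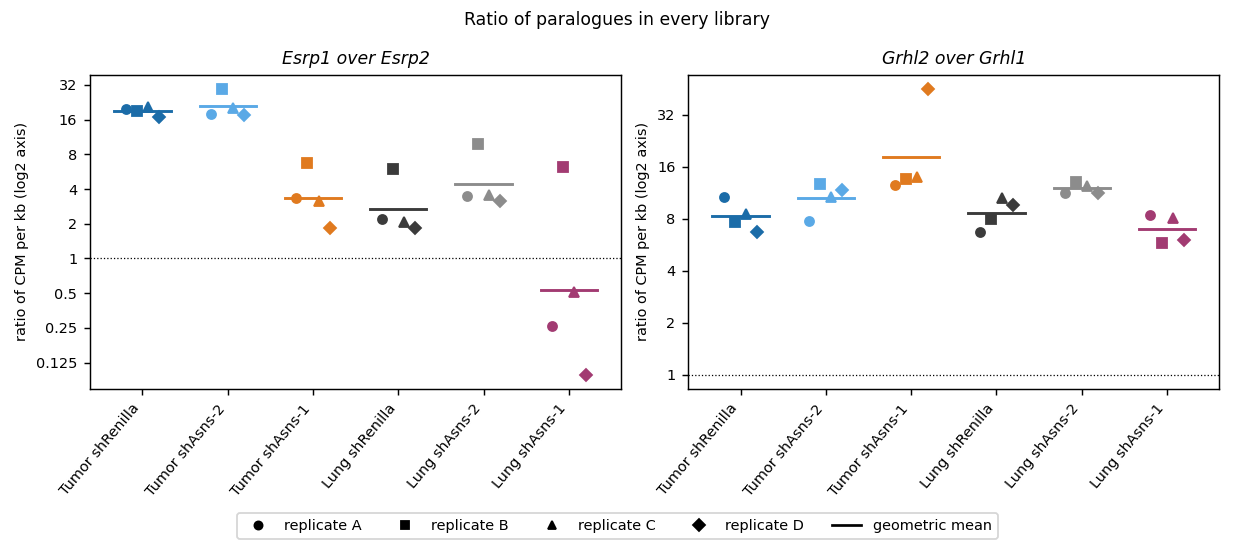
Ratio of Esrp1 to Esrp2 (left) and of Grhl2 to Grhl1 (right) in every library, from CPM per kilobase of exon, on log2 axes. Points are libraries, lines are geometric means of 4, and the dotted line marks equal levels. The Esrp1 ratio drops from a mean of 19.0 in tumor shRenilla to 3.37 in the tumor libraries labelled shAsns-1, and lung shAsns-1 B stands apart at 6.20.

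Among the transcription factors, Grhl2 (ENSMUSG00000022286, chromosome 15, 37233036 to 37363569, plus strand) had the highest CPM, though per kilobase Elf3 was close to it or above. Its levels were 19.0, 22.8, 28.3 and 17.2 CPM in tumor shRenilla and 8.16, 8.94, 7.95 and 9.74 CPM in the tumor libraries labelled shAsns-1. The lower group sat at 39.9% of the control mean with no overlap (-1.33 ± 0.16, adjusted p = 3.86e-07). Lung shRenilla, at 6.70, 9.94, 8.21 and 7.12 CPM, was lower than tumor shRenilla by -1.45 ± 0.16 (adjusted p = 1.27e-07). Lung shAsns-1 held 5.48 to 7.76 CPM and lung shAsns-2 held 8.33 to 9.44 CPM; they did not overlap, but the difference of -0.40 ± 0.16 was not called (adjusted p = 0.655).

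Grhl1 (ENSMUSG00000020656, chromosome 12, 24572283 to 24617391, plus strand), a relative best known from epidermis, had a larger estimated fall than Grhl2 with this hairpin in tumor. It was counted at 1.15, 1.92, 2.14 and 1.65 CPM in tumor shRenilla and at 0.419, 0.424, 0.366 and 0.139 CPM in those libraries (-2.37 ± 0.28, adjusted p = 3.48e-07). Lung shRenilla was intermediate, at 0.644, 0.802, 0.502 and 0.477 CPM (-1.498 ± 0.26 against tumor shRenilla, adjusted p = 9.80e-05). The Grhl2 to Grhl1 ratio per kilobase was 8.24 in tumor shRenilla, 8.57 in lung shRenilla (exact permutation p = 0.857) and 18.1 for the tumor libraries labelled shAsns-1 (exact permutation p = 0.0286, adjusted 0.0571). Library D, with 5 counts of Grhl1, reached 45.1 in that last group and the other 3 libraries lay between 12.5 and 13.9, all above the highest tumor shRenilla library at 10.6.

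Ovol1 (ENSMUSG00000024922, chromosome 19, 5549136 to 5560646, minus strand) encodes a zinc-finger transcription factor of epithelial differentiation. It stood at 3.19, 3.56, 3.17 and 2.07 CPM in tumor shRenilla, 0.419, 0.270, 0.564 and 0.250 CPM in the tumor libraries labelled shAsns-1, and 0.909, 0.770, 0.753 and 0.685 CPM in lung shRenilla. Neither low group reached the control range, and the lung controls lay above all 4 of the tumor shAsns-1 libraries. The falls were -2.97 ± 0.28 (adjusted p = 7.44e-09) and -1.94 ± 0.25 (adjusted p = 2.04e-06). The lung libraries labelled shAsns-1, at 0.428 to 0.615 CPM, lay below every lung shRenilla library, but the difference of -0.51 ± 0.29 was not called (adjusted p = 0.442).

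Elf3 (ENSMUSG00000003051, chromosome 1, 135253575 to 135258568, minus strand), an epithelial ETS factor, had the smallest estimated changes between sites among these factors. It was at 5.79, 8.41, 5.34 and 5.18 CPM in tumor shRenilla and 2.02, 2.43, 2.28 and 2.36 CPM in the tumor libraries labelled shAsns-1 (-1.44 ± 0.22, adjusted p = 1.19e-05). Lung shRenilla held 2.16, 1.604, 3.40 and 3.16 CPM (-1.26 ± 0.21, adjusted p = 8.36e-05). Lung shAsns-2, at 2.17 to 3.84 CPM, was lower than tumor shAsns-2 by -0.83 ± 0.22 (adjusted p = 0.00700), the smallest called change of a member between sites.

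Ehf (ENSMUSG00000012350, chromosome 2, 103263433 to 103303278, minus strand), the other epithelial ETS factor, was barely detected. No library held more than 5 counts, the 4 libraries of a group summed to between 0 and 7, and lung shAsns-2 had none, which allows up to 0.0244 CPM for that group from counting error alone. It did not pass the filter, and exact permutation tests over libraries gave p from 0.143 to 1.0 in the 9 comparisons of groups. A difference in Ehf was not detectable at this depth.

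St14 (ENSMUSG00000031995, chromosome 9, 31089402 to 31131853, minus strand), the matriptase gene, was the most abundant of the membrane effectors. It stood at 10.0, 13.1, 14.7 and 8.34 CPM in tumor shRenilla, 3.28, 4.66, 3.10 and 2.75 CPM in the tumor libraries labelled shAsns-1 and 4.89, 3.27, 4.73 and 4.56 CPM in lung shRenilla. Both low groups lay below the control range and overlapped each other. The differences from tumor shRenilla were -1.75 ± 0.22 (adjusted p = 1.08e-06) and -1.41 ± 0.22 (adjusted p = 2.61e-05). The 4 lung shAsns-2 libraries were close together, at 3.77 to 3.94 CPM.

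Rab25 (ENSMUSG00000008601, chromosome 3, 88542029 to 88548300, minus strand) was near the limit of counting outside the tumor shRenilla and shAsns-2 groups. It had 1.11, 1.07, 0.801 and 0.490 CPM in tumor shRenilla and 0.478, 1.81, 2.01 and 0.860 CPM in tumor shAsns-2. The tumor libraries labelled shAsns-1 held 4 counts in all, and lung shRenilla 3. The pooled level was 26.7 times higher in tumor shRenilla than in the former (95% exact interval 10.1 to 99.9) and 34.3 times higher than in the latter (11.4 to 169). These intervals cover counting error only. The fitted changes of -4.57 ± 0.65 and -4.88 ± 0.68 (adjusted p = 5.52e-06 and 5.80e-06) rest on those few counts.

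Prom2 (ENSMUSG00000027376, chromosome 2, 127526473 to 127541467, minus strand) was likewise scarce outside the tumor shRenilla and shAsns-2 groups. Its levels were 0.853, 0.713, 1.34 and 1.02 CPM in tumor shRenilla, 0.0381, 0.347, 0.254 and 0.278 CPM in the tumor libraries labelled shAsns-1, and 0.0379, 0.0321, 0.0717 and 0.0596 CPM in lung shRenilla. The fall was -2.06 ± 0.37 (adjusted p = 1.37e-04) in the tumor libraries labelled shAsns-1 and -4.17 ± 0.49 (adjusted p = 4.21e-07) between sites. Lung shRenilla held 6 counts in all, so its pooled level was 19.6 times lower than that of tumor shRenilla with an interval of 8.72 to 54.5. In tumor shAsns-2 Prom2 stood at 1.20, 2.00, 1.91 and 2.78 CPM, where library A overlapped the control range, and the difference of 1.04 ± 0.30 from tumor shRenilla was not called (adjusted p = 0.284).

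The upstream sequences of Rab25, Elf3 and Prom2 are shown because these members moved together and because grainyhead, ZEB and ETS factors bind short motifs. RefSeq's promoter table (GRCm38.p6) held entries for 4 of the 10 members, namely Elf3, Prom2, Rab25 and Grhl1 (with 2 start sites). The motifs searched on both strands were AACCGGTT and its relaxed form AACCNGTT for grainyhead factors, CAGGTG (an E-box of the kind ZEB factors bind) and CCGGAAG for ETS factors. The 250 bases before each start site are printed 5′ to 3′ on the gene's strand, with matches in capitals.
Rab25, chr3:88548280-88548529, minus strand: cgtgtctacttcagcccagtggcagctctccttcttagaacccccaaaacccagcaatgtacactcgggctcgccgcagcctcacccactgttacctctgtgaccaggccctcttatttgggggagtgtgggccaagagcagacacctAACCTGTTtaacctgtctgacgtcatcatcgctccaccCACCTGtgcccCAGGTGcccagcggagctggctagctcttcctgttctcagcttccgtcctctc
Elf3, chr1:135258473-135258722, minus strand: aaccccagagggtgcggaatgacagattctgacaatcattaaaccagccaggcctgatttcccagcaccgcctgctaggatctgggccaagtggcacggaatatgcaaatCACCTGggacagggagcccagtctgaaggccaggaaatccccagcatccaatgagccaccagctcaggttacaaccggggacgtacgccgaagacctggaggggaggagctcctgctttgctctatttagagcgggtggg
Prom2, chr2:127541418-127541667, minus strand: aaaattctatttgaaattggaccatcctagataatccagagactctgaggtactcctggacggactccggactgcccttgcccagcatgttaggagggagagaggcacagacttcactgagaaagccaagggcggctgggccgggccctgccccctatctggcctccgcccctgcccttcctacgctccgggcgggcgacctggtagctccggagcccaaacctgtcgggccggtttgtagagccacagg

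Rab25 held a relaxed grainyhead match, AACCTGTT, 102 bases before its start site and 2 E-boxes, as CACCTG and CAGGTG, 64 and 53 bases before it. Elf3 held 1 E-box 140 bases before its start. The Prom2 window and both Grhl1 windows held none of these letters. Windows running from 250 bases before to 50 after the start were searched for all 32851 entries of the table. Of these, 0.146% held AACCGGTT, 2.09% its relaxed form, which includes the exact one, 20.2% the E-box and 8.86% the ETS motif. A match describes the letters only, and binding was not measured.

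The tumor libraries labelled shAsns-2 did not share the change. In tumor shAsns-2 against tumor shRenilla, 0 of the 9 tested members were called by edgeR, DESeq2 or limma. Of all genes tested, 0.0634% were called by edgeR in either direction. An unadjusted p under 0.05 was found for 1 member (Prom2) and for 893 of the 12625 genes tested. All 9 members had overlapping groups, as did most genes, of which 1.46% lay wholly lower and 1.87% wholly higher. These counts do not set the members apart from other genes. Member differences ran from -0.45 (Grhl1) to 1.04 (Prom2), with Esrp1 at 0.18 ± 0.41 and Grhl2 at -0.03 ± 0.15. For these members, the tumor libraries labelled shAsns-1 and shAsns-2 differed from each other. In the tumor libraries labelled shAsns-1 against tumor shAsns-2, 9 of 9 were called lower, against 15% of all genes. All 9 fell without overlap, against 15.8% of all genes wholly lower. Without Rab25 and Prom2, whose fall was built into their being tested, 7 of 7 were called lower. Their median was -1.91, beside -0.015 over all genes. Esrp1 was at -3.76 ± 0.48, Grhl2 at -1.29 ± 0.16, Ovol1 at -2.76 ± 0.28 and St14 at -1.91 ± 0.22. This comparison and the one with tumor shRenilla share the 4 shAsns-1 libraries.

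**Figure D3:**
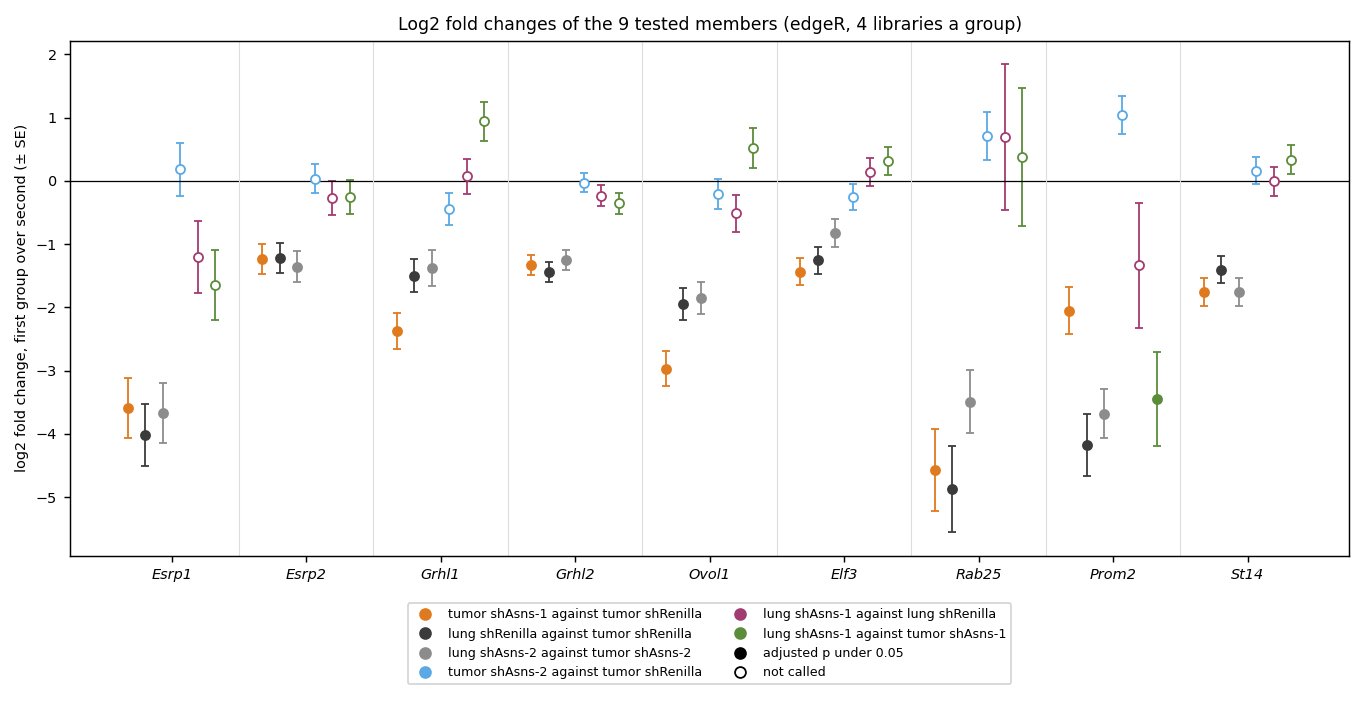
Log2 fold change of the 9 tested members with its SE in 6 comparisons, each of 4 libraries against 4, from edgeR. Filled points have an adjusted p under 0.05 and open points do not. The 3 comparisons drawn first for each gene lie between -0.83 and -4.88 and are all called. The others are open apart from Prom2 in lung shAsns-1 against tumor shAsns-1.

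Between sites, the members were lower in lung for both hairpins whose tumor libraries held high levels. In lung shRenilla against tumor shRenilla 9 of 9 were called lower, where 9.82% of all genes were. All 9 fell without overlap, where 10.1% of all genes lay wholly lower. The 7 members above the filter had a median of -1.45 beside 0.001 over all genes. In lung shAsns-2 against tumor shAsns-2 9 of 9 were again called lower, where 10.9% of all genes were. All 9 fell without overlap, where 9.65% of all genes lay wholly lower. The 7 members above the filter, without Rab25 and Prom2, were all called lower. Their median was -1.38, beside 0.005 over all genes. Esrp1 was at -3.67 ± 0.47, Ovol1 at -1.85 ± 0.26, Grhl1 at -1.38 ± 0.28 and St14 at -1.75 ± 0.22. These 2 comparisons share no library. The fall in the tumor libraries labelled shAsns-1 and the fall in lung shRenilla share the tumor shRenilla libraries, so their likeness is not independent.

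For the libraries labelled shAsns-1, whose tumor levels were already low, lung differed less from tumor. There, 1 of 9 members fell (Prom2, -3.45 ± 0.74, adjusted p = 0.00478, on 2 counts in lung and 29 in tumor, a pooled ratio of 13.5 with an interval of 3.42 to 117), where 2.54% of all genes were called lower. Grhl1 was at 0.94 ± 0.31 (adjusted p = 0.0546) and Esrp1 at -1.65 ± 0.56 (adjusted p = 0.0625). Without lung shAsns-1 B, Esrp1 was called at -3.75 (adjusted p = 4.46e-05), and without lung shAsns-1 A, Grhl1 was called at 1.08 (adjusted p = 0.0432).

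Within lung no member was called for either hairpin by edgeR. In lung shAsns-1 against lung shRenilla it was 0 of 9 by edgeR, DESeq2 and limma, where edgeR called 0.206% of all genes. Esrp1 alone had an unadjusted p under 0.05, where 1665 of the 12625 genes tested did. In lung shAsns-2 against lung shRenilla it was 0 of 9 by the same 3 tools, with Rab25 and Prom2 at an unadjusted p under 0.05, where 0% of all genes were called by edgeR. Over all genes, 1068 had an unadjusted p under 0.05 there, DESeq2 called 2 and limma 1548. In lung shAsns-1 against lung shAsns-2 edgeR and DESeq2 called 0 of 9, where 0.261% of all genes were called. Esrp1 (-1.75 ± 0.55), Grhl2 and Prom2 (-2.87 ± 0.80) had an unadjusted p under 0.05, as did 707 of the 12625 genes tested. By limma 2 were called, Esrp1 and Prom2, where it called 1924 of all genes. Without lung shAsns-1 B, edgeR called Esrp1 at -3.84 (adjusted p = 1.90e-04).

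The difference between the sites in the effect of shAsns-1 was tested as an interaction. It was called for 7 of the 9 members, each time with the lung change above the tumor change, where 6.96% of all genes were called in that direction. Rab25 passed the filter only through the tumor shRenilla and shAsns-2 libraries, so its difference was built into its being tested. Without Rab25 and Prom2, 6 of 7 were called. Within lung, no member was called, and Grhl1 (0.07), Elf3 (0.13), Rab25 (0.69) and St14 (-0.01) showed no fall. Lung shRenilla was itself lower than tumor shRenilla for 9 of 9 members. Grhl1 gave 2.44 ± 0.40 (adjusted p = 1.52e-04), Ovol1 2.46 ± 0.41 (1.74e-04), St14 1.74 ± 0.31 (4.16e-04), Elf3 1.57 ± 0.31 (0.00101) and Grhl2 1.09 ± 0.22 (0.00165). These 5 stayed called under every alternative tried. Esrp1 gave 2.38 ± 0.74 (adjusted p = 0.0330), but 0.29 (adjusted p = 0.832) without lung shAsns-1 B, and its call was also lost, at 2.14 to 2.36, without tumor shAsns-1 A, C or D, tumor shRenilla B, or lung shRenilla C or D. Rab25 gave 5.26 ± 1.52 (adjusted p = 0.0206), from 5 and 3 counts on the lung side, and 4.93 (adjusted p = 0.0818) without lung shAsns-1 D. Esrp2 (0.97 ± 0.37, adjusted p = 0.0742) and Prom2 (0.72 ± 1.76) were not called. For shAsns-2 the difference between sites was called for 0 of 9 members by edgeR, DESeq2 and limma, with 0 at an unadjusted p under 0.05, where 0% of all genes were called, 599 had an unadjusted p under 0.05, and DESeq2 and limma called 1 and 0.

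Genes related to the members by family or function were read from 7 lists and described by counts. Of all genes tested, 16.2% were called higher and 17.7% lower in the tumor libraries labelled shAsns-1 against tumor shRenilla, and 12.0% higher and 9.82% lower in lung shRenilla against tumor shRenilla. The lists are short. Counts for the transcription factor relatives, the other splicing regulators, the genes with ESRP-regulated exons and the RAB11 family and its effectors were near or below these shares. Of 12 tested relatives of the transcription factors, 2 fell and 3 rose in the tumor libraries labelled shAsns-1 against tumor shRenilla (median 0.00). The falling genes were Ovol2, the paralogue of Ovol1 (-2.15 ± 0.34, adjusted p = 2.47e-05), and Foxa1, a luminal pioneer factor (-1.46 ± 0.21, adjusted p = 8.91e-06). Klf4 (0.86 ± 0.17), Tfap2a (0.52 ± 0.16) and Gata3 (0.33 ± 0.12) rose, 3 names outside the rule, given because the count is small. In lung shRenilla against tumor shRenilla, 2 of the 12 fell, Ovol2 (-1.93 ± 0.33) and Foxa1 (-0.62 ± 0.20), and 1 rose, Klf4 (0.51 ± 0.17).

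Of 22 tested epithelial genes reported as GRHL2 targets or as partners in junctions and polarity, 17 fell and 0 rose in the first comparison (median -1.36) and 16 fell and 0 rose in the second (median -1.13). Among those with the largest changes was Tmem54, a transmembrane protein gene, at -3.58 ± 0.23 and -4.34 ± 0.25. Krt8 and Krt18, simple-epithelium keratins on the same list, were not called in either (0.25 ± 0.15 and 0.06 ± 0.19 in the first, 0.07 ± 0.15 and 0.33 ± 0.19 in the second). Krt19, also listed, was called lower in the first (-0.58 ± 0.21, adjusted p = 0.0316) but not in the second (-0.54 ± 0.21, adjusted p = 0.0650). This list also had called members within lung. In lung shAsns-1 against lung shRenilla 3 of the 22 fell, among them Epcam (-0.94 ± 0.15, adjusted p = 0.00248) and Ocln, the occludin gene (-1.47 ± 0.19, adjusted p = 2.59e-04).

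Of the 6 repressors of the epithelial state, 4 could be tested. Zeb2 rose in both comparisons, from 59.4 CPM in tumor shRenilla to 100.3 CPM in the tumor libraries labelled shAsns-1 (0.75 ± 0.15, adjusted p = 2.63e-04) and 96.3 CPM in lung shRenilla (0.70 ± 0.15, adjusted p = 9.08e-04). Twist1 rose from 19.8 to 41.5 CPM (1.07 ± 0.16, adjusted p = 1.75e-05) and 27.4 CPM (0.47 ± 0.16, adjusted p = 0.0409). Zeb1 stood at 1.06 CPM in tumor shRenilla and was not called (0.07 ± 0.24, adjusted p = 0.854, and 0.61 ± 0.23, adjusted p = 0.0590). Snai1 was not called either (-0.44 ± 0.27, adjusted p = 0.227, and -0.16 ± 0.27, adjusted p = 0.728). Snai2 and Twist2 had means under 0.04 CPM in these groups and were not tested.

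Of 13 tested splicing regulators other than the members, 1 rose and 2 fell in the tumor libraries labelled shAsns-1 against tumor shRenilla (median 0.01). Rbm47, an RNA-binding protein gene, rose from 15.5 to 27.0 CPM (0.80 ± 0.12, adjusted p = 1.11e-05), Hnrnpm, whose product competes with ESRP1 on Cd44 exons, fell (-0.40 ± 0.09, adjusted p = 0.00111), and so did Rbfox2 (-0.34 ± 0.13, adjusted p = 0.0410). In lung shRenilla 2 rose, Rbm47 (0.51 ± 0.12, adjusted p = 0.00267) and Mbnl2 (0.40 ± 0.14, adjusted p = 0.0339), and 0 fell. Mbnl1, Qk and Ptbp1 were not called in either comparison.

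Of 13 genes that carry ESRP-regulated exons, 1 fell and 1 rose in the first comparison, Cd44 (-0.52 ± 0.14, adjusted p = 0.00525) and Magi1 (0.37 ± 0.13, adjusted p = 0.0258), and 2 fell in the second, Scrib (-0.63 ± 0.15, adjusted p = 0.00375) and Nfya (-0.58 ± 0.17, adjusted p = 0.0162). Their medians were -0.05 and 0.01. Counts per gene do not show which exon was used, so splicing itself was not measured.

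For the effectors, 3 of 5 tested matriptase partners and surface proteases fell in the first comparison: Plau, the urokinase gene (-1.47 ± 0.18, adjusted p = 6.02e-07), F2rl1, the protease-activated receptor PAR2 (-0.53 ± 0.16, adjusted p = 0.0101), and Spint2, a matriptase inhibitor (-0.38 ± 0.11, adjusted p = 0.0112). In the second, 1 of 5 fell, F2rl1 (-0.88 ± 0.16, adjusted p = 1.53e-04). Of 8 tested RAB11 family members and effectors, Myo5b, the myosin motor of recycling endosomes, fell in both (-3.07 ± 0.37, adjusted p = 4.81e-07, and -2.80 ± 0.36, adjusted p = 1.85e-06), and Rab11a rose in both (0.48 ± 0.13, adjusted p = 0.00505, and 0.76 ± 0.13, adjusted p = 8.36e-05). Rab11fip1 fell in the first (-0.48 ± 0.10, adjusted p = 6.24e-04).

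**Figure D4:**
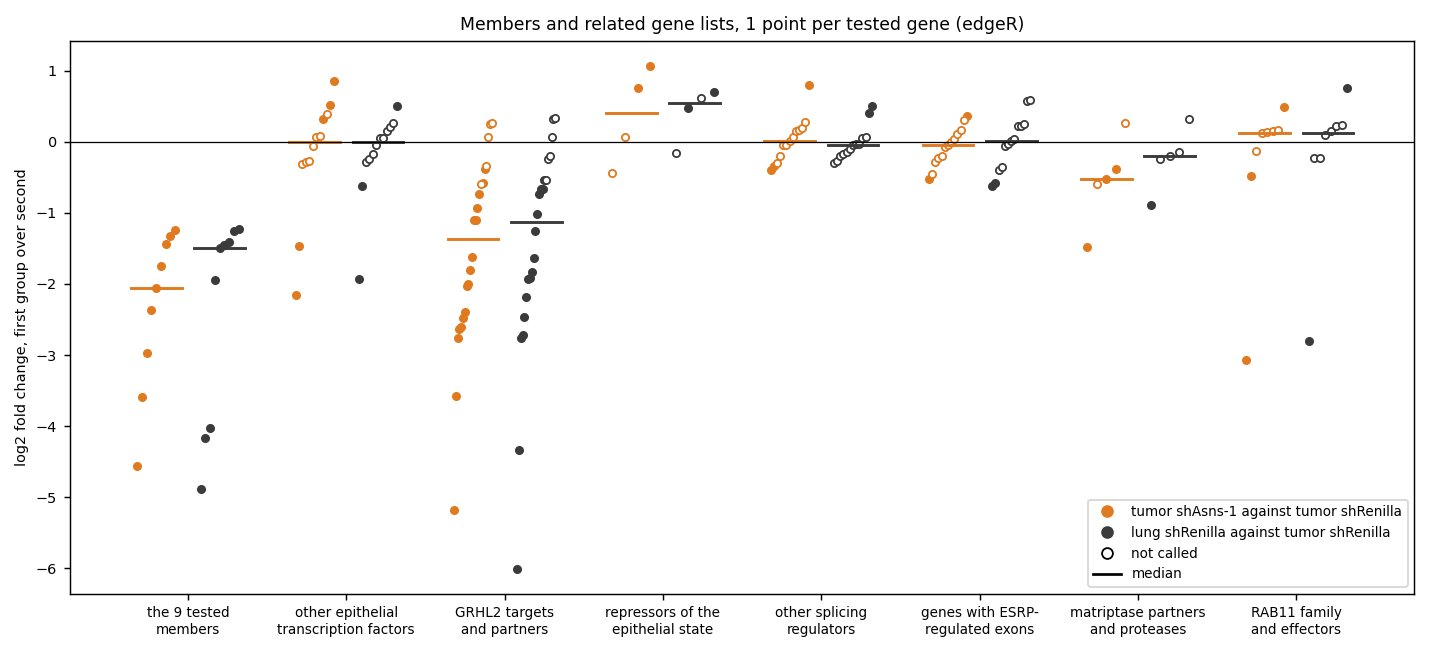
Log2 fold change of the 9 tested members and of the tested genes in 7 related lists, in the tumor libraries labelled shAsns-1 (orange) and in lung shRenilla (dark), each against tumor shRenilla. Points are genes, filled where the adjusted p is under 0.05, and lines are medians. The GRHL2 list has medians of -1.36 and -1.13, while the other splicing regulators and the genes with ESRP-regulated exons stay within 0.06 of 0.

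Markers of other cell types moved with some of these groups. The summed level of 9 fibroblast markers was 15.7 to 18.2 CPM in tumor shRenilla and 16.3 to 20.9 in tumor shAsns-2, against 24.0 to 32.4 in the tumor libraries labelled shAsns-1, 26.4 to 51.3 in lung shRenilla, 23.9 to 27.1 in lung shAsns-2 and 34.3 to 70.0 in lung shAsns-1. Most of it was Pdgfra (14.5 to 17.1 CPM in tumor shRenilla and 23.1 to 31.5 in the tumor libraries labelled shAsns-1), while Thy1 and Pdgfrb were at 0 in all 4 of the latter and Col1a1 did not exceed 0.0278 CPM there. Dcn, the decorin gene, was at 0.617 to 0.694 CPM in those libraries and at 0.178 to 0.420 CPM in tumor shRenilla, with no overlap. In tumor shAsns-2, however, Dcn ranged from 0.173 to 1.55 CPM, which spans both. Col1a2 (means of 0.546 and 0.621 CPM), Fap (0.147 and 0.175), Col1a1 and Col3a1 were lower by mean in the tumor libraries labelled shAsns-1 than in tumor shRenilla. In lung shAsns-1 the highest library reached 8.53 CPM for Col1a2, 8.53 for Col3a1 and 8.61 for Dcn. The 8 leukocyte markers in the table summed to 1.42 to 3.78 CPM in tumor libraries and 2.91 to 10.4 CPM in lung libraries. The 6 endothelial markers stayed under 1.46 CPM, and 9 markers of lung epithelium, Sftpc among them, at or under 0.455 CPM. Lamp3, also on that list, was at 25.5 to 63.3 CPM in every group, tumor groups included. The part of these cell types in the members' levels was not tested. Krt8 and Krt18, at 138 to 286 and 174 to 422 CPM over all 24 libraries, were called in none of the 9 comparisons of groups, whereas Cdh1 fell from 226 to 36.4 CPM in the tumor libraries labelled shAsns-1 (-2.64 ± 0.18, adjusted p = 4.14e-11). Krt19, a scarcer keratin, was called lower in those libraries against tumor shRenilla (-0.58 ± 0.21, adjusted p = 0.0316) and against tumor shAsns-2 (-0.93 ± 0.21, adjusted p = 0.00173).

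Over the 24 libraries the members rose and fell together, but not within groups. The 36 pairs of tested members had Pearson r of 0.63 to 0.92 (median 0.82) on log2 CPM. After each group's mean was removed, r ran from -0.34 to 0.47 (median 0.13), and 0 pairs exceeded 0.5. The libraries fall into 8 high and 16 low ones, so the first set of values describes that split, and the points share sequencing depth.

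Other genes followed the same split closely. Among 8011 genes with a mean log2 CPM of at least 3, 84 had r over 0.9 with the members' mean profile, and 0 did once group means were removed. The highest were Gsn, the actin-severing gelsolin gene (0.98), Cdh1, the E-cadherin gene (0.98), Mpzl2, an epithelial adhesion gene (0.97), Macc1, named for its association with metastasis (0.97) and Fads3, of the fatty acid desaturase family (0.97). Macc1 went from 100.04 CPM in tumor shRenilla to 10.3 CPM in the tumor libraries labelled shAsns-1 and 10.2 CPM in lung shRenilla. Nearest to Esrp1 were Krt7, a simple-epithelium keratin gene (0.96), Macc1 (0.95) and Serpinb5, the maspin gene (0.94). The most opposed were Tslp, an epithelial cytokine gene (-0.98), Gm15910, a gene model without a named product (-0.98), and Mmp3, the stromelysin-1 gene (-0.97). Tslp stood at 46.0 CPM in tumor shRenilla, 480 CPM in the tumor libraries labelled shAsns-1 and 567 CPM in lung shRenilla.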

How the data were processed

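The authors deposited 1 table of raw counts per gene symbol, which per the submitters' processing notes came from Bowtie2 and HTSeq on mm10; versions, annotation, strand setting and filters are not given in the sources used here. Per the labels' protocols, RNA was extracted with Trizol and libraries were made with the NuGEN Ovation RNAseq V2 reagents. The members, gene lists and rules for naming genes (all members, the genes most like them, the 2 largest called changes per list, of which 1 gene is not reported here) were chosen with earlier results of these data known. From the counts, edgeR 4.0.16 (R 4.3.3) was fitted to all 24 libraries with TMM scaling, filterByExpr (12625 of 23478 genes kept) and robust quasi-likelihood, with 1 mean per group. The SE of a log2 fold change is its size divided by the root of its F statistic. P-values were adjusted by Benjamini-Hochberg over all tested genes within each of 11 comparisons. Exon lengths and positions came from GENCODE M21 (GRCm38). No library duplicated another (lowest chi-square per degree of freedom 4.74 within a group). The biological coefficient of variation was 14.9%. The fits were tested on simulated counts. Alternatives were DESeq2 1.42.0, its size factors, limma 3.58.1 with library weights, fits of only the compared groups or without the filter, a replicate block, omitting both lung shRenilla B and the D library of lung shAsns-2, and leaving out each library in turn.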

Additional observations from a re-analysis of the deposited data

Results flagged for a closer look

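Among groups of 4 libraries, the Esrp1 level of lung shRenilla B (3.88 CPM) stood far from the other 3 (2.00 to 2.20 CPM), and that of lung shAsns-1 B (3.85 CPM) stood far from its own group (0.0772 to 0.401 CPM). Ehf in the tumor library labelled shAsns-1 D (0.139 CPM, 5 counts) stood apart from 3 libraries at 0. Chance alone sets apart about 1 in 20 groups, and 66 groups of libraries were looked at, for the 10 members and Asns.

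The effect of shAsns-1 against shRenilla differed between lung and tumor, by the interaction test, for Esrp1 (2.38), Grhl1 (2.44), Grhl2 (1.09), Ovol1 (2.46), Elf3 (1.57), Rab25 (5.26) and St14 (1.74). These are log2 differences, lung effect minus tumor effect, and the 7 are positive. That of Esrp1 was 0.29 (adjusted p = 0.832 by the same test) without lung shAsns-1 B, the library set apart above. Its call was also lost under other alternatives. That of Rab25 was built into its being tested, since it passed the filter only through the tumor shRenilla and shAsns-2 libraries. The libraries labelled shAsns-1 held more Asns RNA than their controls, and the part of this in the differences was not tested.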

How the results depend on the processing

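The counts of 9 called members in 4 comparisons were 9 under every alternative run, and counts of 0 for shAsns-2 against shRenilla, in tumor, in lung and between sites, were 0 under every one. In lung shAsns-1 against tumor shAsns-1, where 1 member was called, 3 were with limma (Prom2, Esrp1, Grhl1), 2 with only the compared groups (Grhl1 and Grhl2, since Prom2 and Rab25 did not pass the filter there), 2 with a replicate block and 3 when lung shRenilla B and the D library of lung shAsns-2 were left out; leaving out each library in turn gave 1 to 2. Over all genes, 1079 were called there, against 4116 with limma, 3683 with only the compared groups, 1150 with the block and 3015 without those 2 libraries. In lung shAsns-1 against lung shAsns-2, where 0 were called, limma called 2 (and 1924 of all genes, against 33), and leaving out each library in turn gave 0 to 1. In lung shAsns-1 against lung shRenilla it gave 0 to 1. The cause was not tested. The Esrp1 difference between sites was not called with DESeq2 (adjusted p = 0.0709), no filter (0.124) or only the compared groups (0.0573), and the last of these called Esrp2 (0.0305). None of the member values followed across the alternatives changed direction. In comparisons where no member was called, members without a low unadjusted p were not followed. Whether those values, some of them close to no change, kept their direction was not tested.

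The labels do not say whether the letters A to D pair the samples, and the main fit used no pairing. Same-letter deviations from group means correlated from -0.41 to 0.35, with 0 to 3 of 4 pairs over 0.1 in a comparison. At most 4 of 8 samples in a comparison correlated best with their own letter. With 4 libraries a group, such values cannot exclude a pairing. The replicate block changed no other count of called members. Low counts, at most 5 per library for Ehf and at most 9 in lung for Rab25 and Prom2, limit what these genes can show.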
